A study of Mus musculus with 20 samples.

Results

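Eosinophils and macrophages taken from colonic tumors of mice were compared with each other, library against library. The comparison used every library that the labels call intra-tumoral, 7 of eosinophils and 6 of macrophages, which are 13 of the 20 libraries of the series. All donors were wild-type C57BL/6 mice, and the tumor-bearing ones had been through CAC induction, an abbreviation used in the field for colitis-associated cancer and not spelled out in the labels. The other 7 libraries came from the colon of naive mice, 2 of eosinophils and 5 of macrophages, and serve here only to ask whether the difference between the cell types was the same without tumors. Colons were digested with enzymes, the cells were isolated by flow cytometry, RNA was extracted with Trizol, and libraries were made by CEL-Seq, a method that primes at the poly(A) tail, barcodes each sample and amplifies it linearly, so that reads fall near the 3′ end of a transcript. The sources used here do not give the inducing agents, the age of the mice or the surface markers of the sort. Nothing states that replicates came from separate animals, so p-values measure the spread between these libraries, which may be technical. Each cell type was sorted and tabulated on its own, and cell type, sorting gate and table cannot be told apart.

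Eosinophils are granulocytes that mature in the bone marrow under interleukin-5, enter the gut through the eotaxin receptor CCR3, and carry granules of major basic protein, eosinophil peroxidase and ribonucleases that are largely made before the cell leaves the marrow. Macrophages of the colon are replenished from blood monocytes, depend on colony-stimulating factor 1 through its receptor CSF1R, and take up, degrade and present material to CD4+ T cells on MHC class II. In both lineages the transcription factor PU.1 is present, whereas GATA factors are a property of the eosinophil branch and the transactivator CIITA drives MHC class II genes through a promoter module that includes a CCAAT-type Y box.

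The promoters of 4 genes that were far apart between the cell types are shown as examples, and each holds the motif marked in it. Most promoters of genes on either side did not hold that motif, as the shares below show. The eotaxin receptor Ccr3 and the leukotriene enzyme Alox5 were higher in eosinophils, and the MHC class II chains H2-Aa and H2-Eb1 in macrophages. Each sequence shown is the 250 bases before the start of the gene in RefSeq (GRCm38.p6), written 5′ to 3′ on the strand of the gene. Capitals mark the GATA core (GATAA) in the first pair and the Y box core (GATTGG) in the second pair, on either strand. The windows are chr9:124021721-124021970 (+) for Ccr3, chr6:116461179-116461428 (-) for Alox5, chr17:34287824-34288073 (-) for H2-Aa and chr17:34305617-34305866 (+) for H2-Eb1.
Ccr3: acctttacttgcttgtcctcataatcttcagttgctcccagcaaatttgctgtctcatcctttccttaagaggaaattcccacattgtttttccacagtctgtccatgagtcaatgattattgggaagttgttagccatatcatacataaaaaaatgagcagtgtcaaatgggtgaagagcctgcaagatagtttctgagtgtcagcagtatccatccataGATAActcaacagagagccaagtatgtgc
Alox5: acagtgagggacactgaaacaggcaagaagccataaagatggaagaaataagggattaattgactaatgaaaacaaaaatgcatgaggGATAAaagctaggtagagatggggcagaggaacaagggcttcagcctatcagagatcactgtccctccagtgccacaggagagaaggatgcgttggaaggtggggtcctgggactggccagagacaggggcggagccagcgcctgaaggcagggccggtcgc
H2-Aa: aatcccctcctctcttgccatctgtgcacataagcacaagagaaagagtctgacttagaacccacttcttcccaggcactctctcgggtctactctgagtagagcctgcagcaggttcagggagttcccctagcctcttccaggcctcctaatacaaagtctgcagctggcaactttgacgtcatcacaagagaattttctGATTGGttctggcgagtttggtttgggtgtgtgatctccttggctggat
H2-Eb1: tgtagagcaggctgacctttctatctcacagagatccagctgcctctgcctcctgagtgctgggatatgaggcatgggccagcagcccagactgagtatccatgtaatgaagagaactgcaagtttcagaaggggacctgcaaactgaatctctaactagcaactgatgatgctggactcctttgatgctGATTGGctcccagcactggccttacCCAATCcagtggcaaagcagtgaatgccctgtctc
The GATA core lay 29 bases before the start in Ccr3 and 162 bases before it in Alox5, and the Y box core lay 49 bases before the start in H2-Aa. H2-Eb1 held 2 matches, the one at 60 and the other at 35 bases before the start. Over windows of 300 bases (250 before and 50 after the start, both strands), GATAA was found in 24.8% of the 266 promoters matched to genes at least 4-fold higher in eosinophils, in 14.5% of the 386 matched to genes at least 4-fold higher in macrophages, in 16.2% of the 8853 of all genes tested, and in 25.8% of all 27025 promoters in the table. GATTGG was found in 13.2%, 18.1%, 20.4% and 16.6% of the same sets. GAGGAAGT, a site of the PU.1 type, was found in 7.89%, 8.81%, 3.56% and 3.28%. Other motifs had been looked at in the same windows, and these shares are descriptions of letters, not of binding.

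The 13 tumor libraries held between 1978466 and 8520874 reads assigned to genes, with eosinophil libraries 6 and 7 and macrophage library 1 the shallowest. Levels are given as CPM (reads of a gene relative to the library's scaled total) after scaling all 13 libraries together, and levels of different genes are not compared. Naive levels, and tumor levels in the comparison with naive colon, were scaled over all 20 libraries. A tumor level can therefore differ slightly between passages. A difference is the eosinophil mean minus the macrophage mean on the scale log2(CPM + 1), printed ± its standard error. Because 1 CPM is added, it understates the change of low genes. Mitochondrial transcripts took 15.2% to 35.2% of the reads in eosinophils, most in libraries 2 and 3, and 8.23% to 10.4% in macrophages. Immunoglobulin transcripts took 0.74% to 2.37% in eosinophils and 1.05% to 7.52% in macrophages, most in libraries 1 and 2. In sorted bulk samples, fewer cells of a type and less RNA per cell cannot be told apart.

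Both labels held against their defining genes. Ccr3, the eotaxin receptor (chr9:124021972-124031689, plus strand), had 171 to 425 CPM (median 331) in the eosinophil libraries and 0 to 1.2 CPM (median 0.50) in the macrophage libraries. All 7 eosinophil libraries stood far above all 6 macrophage libraries, with a log2 difference of 7.71 ± 0.24 (adjusted p = 2.07e-12). Csf1r, the receptor of colony-stimulating factor 1, had 148 to 332 CPM (median 253) in the eosinophil libraries and 914 to 1416 CPM (median 1251) in the macrophage libraries. The groups did not overlap and the log2 difference was -2.35 ± 0.19 (adjusted p = 4.29e-08), but Csf1r transcripts in eosinophils still reached 20.1% of the macrophage mean. That share varied between macrophage genes. It was 1.69% for the complement gene C1qa and 1.55% for the actin-binding protein Aif1, both among the genes with the smallest p-values on that side. Cd14 and Grn, given below, had log2 differences close to that of Csf1r. The part of macrophage RNA in the Csf1r level of the eosinophil libraries was not tested. Adgre1, which encodes F4/80 and is used to sort macrophages, had 70.3 to 165 CPM (median 139.6) in the eosinophil libraries and 91.0 to 166 CPM (median 119) in the macrophage libraries. Its groups overlapped throughout and its difference was 0.01 ± 0.21, with a 95% interval of -0.44 to 0.46.

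**Figure D1:**
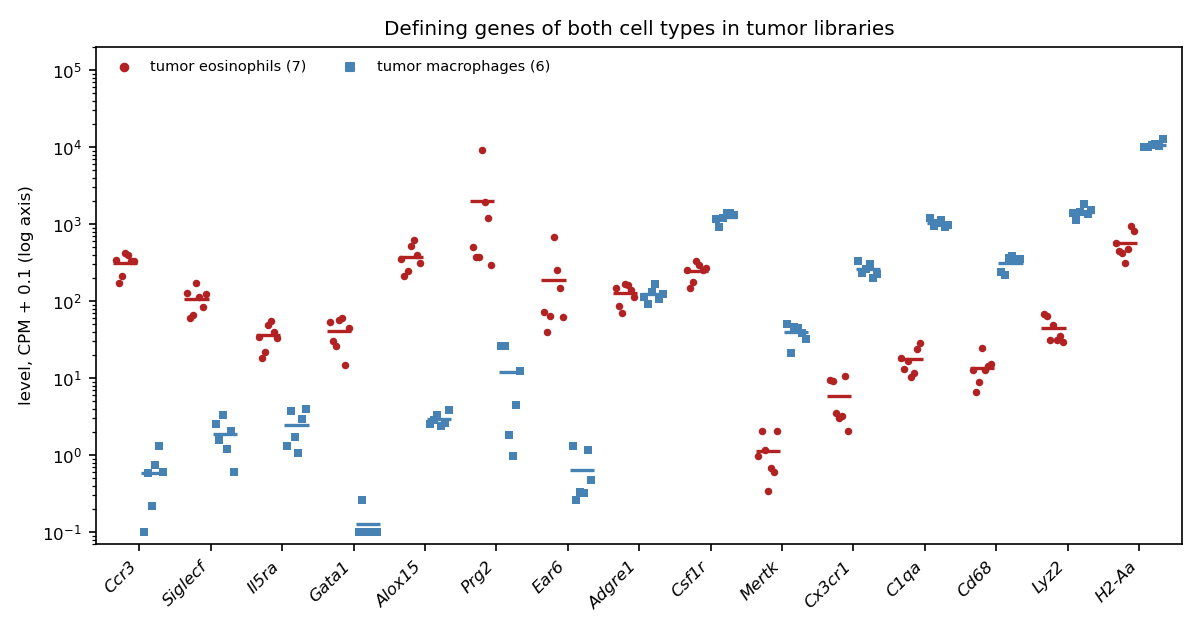
Levels of 15 defining genes of eosinophils and macrophages in each tumor library, CPM + 0.1 on a log axis, with 7 eosinophil and 6 macrophage points and a bar at each group mean. Ccr3, Siglecf, Il5ra and Prg2 separate upward in eosinophils, Csf1r, C1qa, Cd68 and Mertk separate upward in macrophages, and Adgre1 overlaps.

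Markers of other cells differed between the 2 groups and stand here once for all that follows. Of all genes tested, 19.5% were higher in eosinophils and 30.5% in macrophages at an adjusted p under 0.05 by limma's test. Counts of markers, here and in the next paragraph, are read against these shares. Of 12 neutrophil markers tested, 11 were higher in eosinophils and none in macrophages, and their summed level was 5368 to 16900 CPM in the eosinophil libraries and 119 to 839 CPM in the macrophage libraries. Retnlg, a resistin-like gene of neutrophils, made up most of that sum with 4696 to 14820 CPM (median 8927) in the eosinophil libraries and 7.10 to 179 CPM (median 48.7) in the macrophage libraries, and it was as high in the 2 naive eosinophil libraries, at 7734 and 15870 CPM. Without Retnlg the picture was less even. S100a8, a chain of calprotectin, had 35.1 to 272 CPM (median 212) in the eosinophil libraries and 6.37 to 97.8 CPM (median 28.4) in the macrophage libraries, and the groups overlapped because eosinophil libraries 2 and 3 were low (58.0 and 35.1 CPM) and macrophage libraries 1 and 2 were high (97.8 and 90.5 CPM). Elane, neutrophil elastase, did not pass the filter on low values. It had 110.2, 200.3 and 37.2 CPM in eosinophil libraries 5, 6 and 7, at most 0.179 CPM in the other eosinophil libraries, and at most 0.165 CPM in the macrophage libraries. Ly6g, a surface marker of neutrophils, had 15.4 to 74.4 CPM (median 23.3) in the eosinophil libraries and 5.41 to 17.1 CPM (median 9.81) in the macrophage libraries.

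Of 14 epithelial markers, 8 were higher in eosinophils (summed level 2204 to 6850 CPM in the eosinophil libraries and 1203 to 2238 CPM in the macrophage libraries), with the keratins Krt8 at 1275 against 386 CPM, log2 difference 1.61 and Krt20 at 83.1 against 22.5 CPM, log2 difference 1.82, and the galectin Lgals4 at 1376 against 576 CPM, log2 difference 1.12. Of 13 stromal and endothelial markers 5 were higher in eosinophils, among them Acta2 (144 against 32.1 CPM, log2 difference 1.96), Pecam1 (70.9 against 34.0 CPM, log2 difference 1.06) and Col3a1 (387 against 158 CPM, log2 difference 1.10). All 5 erythrocyte markers tested were higher in eosinophils (summed level 798 to 2573 CPM in the eosinophil libraries and 111 to 515 CPM in the macrophage libraries), with the globins Hba-a1 and Hbb-bs, which have near-identical copies, at 468 against 60.4 CPM, log2 difference 3.18, and 718 against 103 CPM, log2 difference 2.90. Of 12 B and plasma cell markers, 10 were higher in macrophages, with summed levels of 8698 to 17570 CPM in the eosinophil libraries and 7458 to 71100 CPM in the macrophage libraries. Pou2af1 averaged 2.47 against 21.2 CPM, log2 difference -2.58 and Cd79b 5.47 against 37.0 CPM, log2 difference -2.41, and Igkc (9886 against 18500 CPM) was not called. Of 11 dendritic cell markers, 8 were higher in macrophages, among them Flt3 (0.308 against 7.79 CPM) and the homing receptor Ccr7 (4.23 against 107 CPM). Of 8 T and NK cell markers tested, Cd4, which gut macrophages can also express, was higher in macrophages (23.7 against 114 CPM, log2 difference -2.38) and Trbc2 in eosinophils (21.7 against 9.48 CPM, log2 difference 1.39), a call lost in 8 alternatives. Of 9 monocyte markers 4 were higher in each group, Plac8 in eosinophils (128 against 52.4 CPM, log2 difference 1.27). Of 5 mast cell markers, Kit was higher in macrophages (5.38 against 17 CPM, log2 difference -1.72) and Mcpt1 (39.2 against 32.4 CPM) was not called. The part of these cells in the differences below was not tested. Without macrophage libraries 1 and 2, a setting chosen after seeing the data, 7 of the B and plasma cell markers and 6 of the dendritic cell markers were called.

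**Figure D2:**
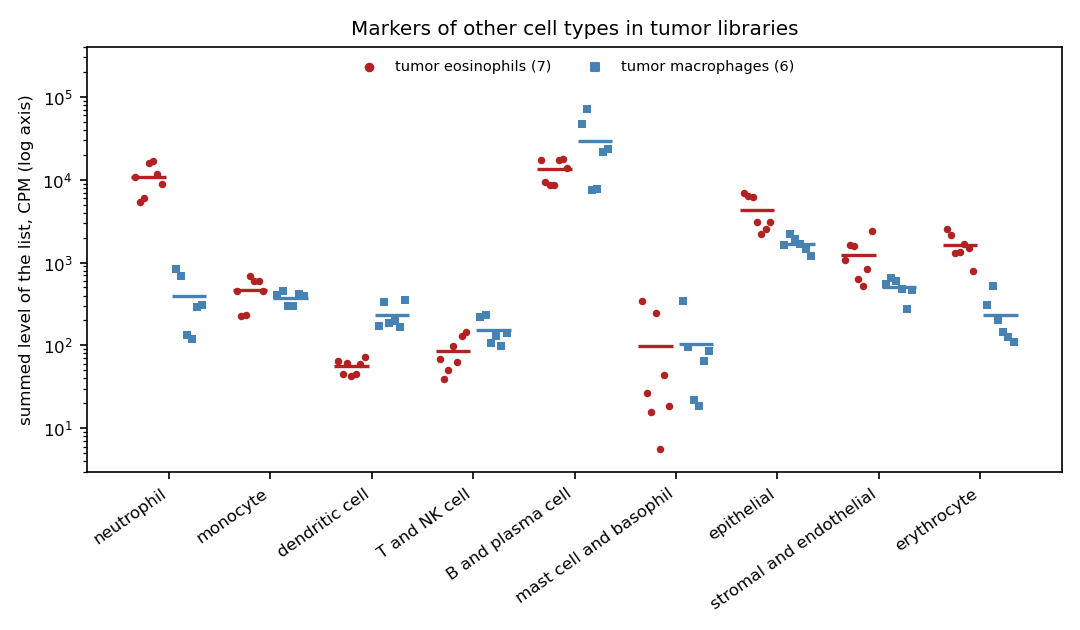
Summed level of each list of markers of other cell types in each tumor library, CPM on a log axis, eosinophils beside macrophages. Neutrophil and erythrocyte sums are higher in every eosinophil library than in any macrophage library, and the B and plasma cell sum is highest in macrophage libraries 1 and 2.

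Differences between the 2 cell types were broad. Of 11964 genes tested, 5979 were called at an adjusted p under 0.05 (50.0%). Of these 2334 were higher in eosinophils (19.5%) and 3645 were higher in macrophages (30.5%), with 400 (3.34%) and 524 (4.38%) differing by 4-fold or more. In 2978 genes (24.9%) the 2 groups did not overlap. The split depended on the scaling: 39.0% of the calls were higher in eosinophils with the joint scaling used here, 23.0% with totals of all reads, 33.6% with totals that leave out mitochondrial and immunoglobulin genes, 46.8% with median-of-ratios factors and 52.2% in DESeq2. The median difference over all genes moved with it, from -0.49 with totals through -0.18 here to 0.04 in DESeq2, so a small difference that is shared by a whole list is read against -0.18. Counts of list members are read against the shares of all genes tested, 19.5% higher in eosinophils and 30.5% higher in macrophages.

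Among the genes with the smallest p-values on the eosinophil side, beside Ccr3, were coagulation factor F5, the lipoxygenase Alox15, the growth factor receptor Fgfr1 and the epidermal-type lipoxygenase Alox12e. Gapt, an adaptor that binds GRB2, was also among them. F5 (chr1:164151838-164220277) had 321 to 756 CPM (median 592) in the eosinophil libraries and 0.579 to 4.45 CPM (median 1.92) in the macrophage libraries, a log2 difference of 7.55 ± 0.28 (adjusted p = 7.7e-12). Fgfr1 had 102 to 228 CPM (median 133) in the eosinophil libraries and 2.04 to 4.55 CPM (median 2.59) in the macrophage libraries, a difference of 5.15 ± 0.21 (adjusted p = 1.37e-11). Alox12e had 67.5 to 109.8 CPM (median 86.1) in the eosinophil libraries and 0.451 to 2.66 CPM (median 1.19) in the macrophage libraries, a difference of 5.30 ± 0.22 (adjusted p = 1.66e-11). In all 3 genes the lowest eosinophil library was at least an order of magnitude above the highest macrophage library. Gapt averaged 534 against 9.41 CPM, and the repressor Gfi1b, partner of GATA factors in blood formation, averaged 42.6 ± 16.2 CPM in eosinophils (SD, n = 7) and was at 0 in 5 of the 6 macrophage libraries, with 0.165 CPM in the other. Among genes differing by 4-fold or more, those with the highest eosinophil levels included Srgn, the proteoglycan that packs granule contents, with 15080 to 45510 CPM (median 31140) in the eosinophil libraries and 1895 to 3688 CPM (median 3086) in the macrophage libraries. Cd24a, a surface glycoprotein, averaged 2469 against 164 CPM, log2 difference 3.91, the leukotriene B4 hydroxylase Cyp4f18 averaged 2468 against 166 CPM, log2 difference 3.90, and the calcium-binding proteins S100a6 and S100a11 averaged 6611 against 1210 CPM and 3752 against 690.1 CPM. The membrane protein Tmem154 (513 against 24.4 CPM), Nhsl2 (219 against 3.84 CPM), Ankrd33b (151 against 10.4 CPM), the actin regulator Rflnb (187 against 8.41 CPM) and Ccl6, described below, completed the genes with the smallest p-values on this side.

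On the macrophage side the genes with the smallest p-values included Aif1, C1qa, the late endosomal GTPase Rab7b and the lysosomal thiol reductase Ifi30. Aif1 had 2.77 to 6.12 CPM (median 4.06) in the eosinophil libraries and 188 to 313 CPM (median 277) in the macrophage libraries, a log2 difference of -5.71 ± 0.19 (adjusted p = 2.07e-12). Rab7b had 6.08 to 12.3 CPM (median 8.10) in the eosinophil libraries and 193 to 325 CPM (median 244) in the macrophage libraries, a difference of -4.65 ± 0.19 (adjusted p = 1.37e-11). Lyz2, the lysozyme of myeloid cells, had 29.3 to 69.1 CPM (median 35.4) in the eosinophil libraries and 1121 to 1851 CPM (median 1424) in the macrophage libraries, a difference of -5.07 ± 0.22 (adjusted p = 2.27e-11). None of these overlapped between the groups. The genes with the highest macrophage levels among those differing by 4-fold or more included the invariant chain Cd74 (3928 against 63030 CPM), apolipoprotein E (460.2 against 11860 CPM), the MHC class II chains and the cathepsins Ctss and Ctsc, described below.

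**Figure D3:**
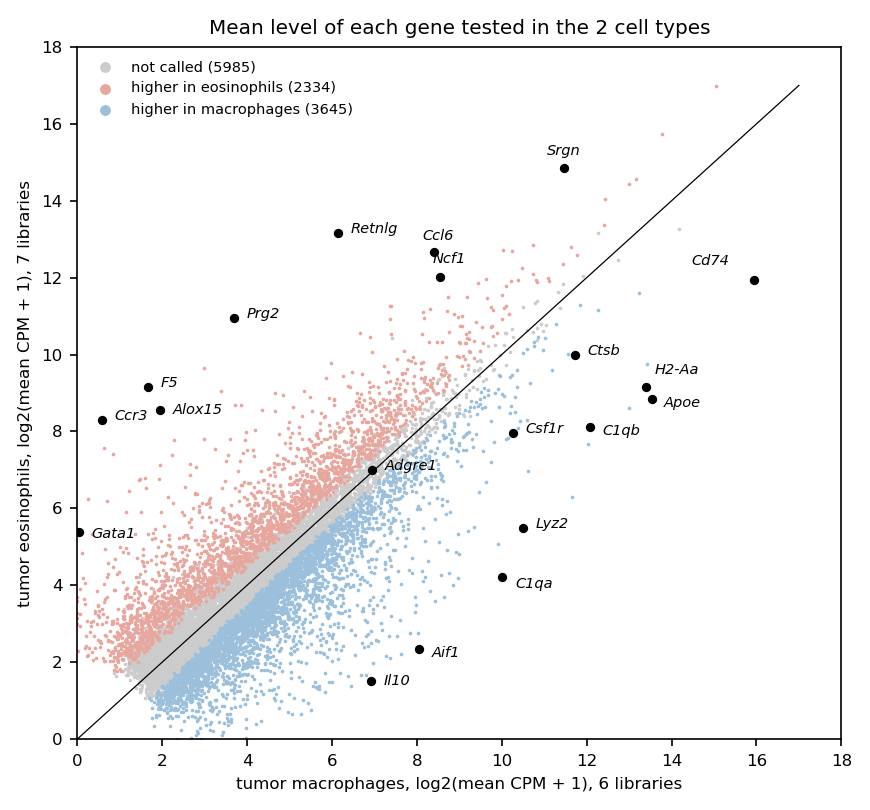
Mean level of each tested gene in tumor macrophages (x) and tumor eosinophils (y), as log2(mean CPM + 1), with a line of equality. The 2334 genes called higher in eosinophils and the 3645 called higher in macrophages are colored and 20 genes named in the text are labelled.

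Eosinophil surface receptors were set apart as a group. Of 11 listed receptors, 9 passed the filter, 6 were higher in eosinophils and none in macrophages, with a median difference of 2.88. Siglecf, the sialic acid-binding lectin used to identify mouse eosinophils, had 61.2 to 175 CPM (median 113) in the eosinophil libraries and 0.505 to 3.24 CPM (median 1.72) in the macrophage libraries, a difference of 5.27 ± 0.28 (adjusted p = 2.79e-10). Il5ra, the interleukin-5 receptor chain, had 18.2 to 55.9 CPM (median 34.2) in the eosinophil libraries and 0.983 to 3.92 CPM (median 2.24) in the macrophage libraries, a difference of 3.46 ± 0.30 (adjusted p = 8.91e-08). Il1rl1, the interleukin-33 receptor, had 84.0 to 229.6 CPM (median 143) in the eosinophil libraries and 7.54 to 22.3 CPM (median 10.3) in the macrophage libraries, a difference of 3.47 ± 0.26 (adjusted p = 1.76e-08). In each of the 3 receptors every eosinophil library was above every macrophage library. The UDP-glucose receptor P2ry14 averaged 279 against 36.4 CPM, log2 difference 2.88. Csf2ra, the GM-CSF receptor chain, was called at 1435 against 882 CPM, log2 difference 0.60 with overlapping groups, and the call was lost in 13 of 27 alternatives. The shared chain Csf2rb (515 against 389 CPM) and its near copy Csf2rb2 (57.4 against 85.8 CPM) were not called, and reads can be split between these copies. Csf2rb2 was called higher in macrophages in 8 of 27 alternatives.

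Granule protein transcripts were found in eosinophils, and 1 library held most of them. Prg2, major basic protein, had 296 to 9234 CPM (median 499.9) in the eosinophil libraries and 0.874 to 26.1 CPM (median 8.24) in the macrophage libraries. Eosinophil library 4 held 9234 CPM and the next highest 1915 CPM, and macrophage libraries 1 and 2 were at 26.1 and 26.1 CPM. The log2 difference was 6.80 ± 0.79 (adjusted p = 2.6e-06), and 6.25 without library 4. Epx, eosinophil peroxidase, was at 0 in all 6 macrophage libraries, where 3 reads are worth 0.318 to 1.13 CPM, and had 0 to 285 CPM (median 18.9) in eosinophils. It failed the filter, as did the ribonuclease Ear1 (0.716 to 171 CPM (median 12.6) in eosinophils). Ear6 had 39.5 to 683 CPM (median 71.2) in the eosinophil libraries and 0.165 to 1.22 CPM (median 0.305) in the macrophage libraries, a difference of 6.30 ± 0.51 (adjusted p = 4.25e-08). Library 4 was the highest in every one of these genes and in Prg3, the homolog of major basic protein (39.6 against 0.269 CPM, log2 difference 4.0). Ear2 averaged 10.2 against 1.31 CPM and was not called (difference 1.35 ± 0.66, adjusted p = 0.0965). The ribonucleases are near-identical copies, and their reads can be assigned to the wrong member.

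Transcription factors of the granulocyte branch split in both directions, 4 of 12 higher in eosinophils and 3 in macrophages. Gata1, required for the eosinophil lineage, had 14.7 to 59.9 CPM (median 44.3) in the eosinophil libraries and 0 to 0.165 CPM (median 0) in the macrophage libraries, a difference of 5.21 ± 0.30 (adjusted p = 5.13e-10), and was at 0 in 5 of the 6 macrophage libraries. Cebpe, needed for granule formation, averaged 10.8 against 0.558 CPM, log2 difference 2.89, Gata2 averaged 13.7 against 4.14 CPM, log2 difference 1.90 with overlapping groups, and the kinase-like regulator Trib1 averaged 392 against 148 CPM, log2 difference 1.34. Cebpa, which drives early myeloid differentiation, went the other way with 6.25 to 15.2 CPM (median 8.23) in the eosinophil libraries and 93.0 to 224 CPM (median 132) in the macrophage libraries, a difference of -3.79 ± 0.25 (adjusted p = 3.24e-09), and the repressor Bcl6 averaged 19.4 against 46.9 CPM, log2 difference -1.30 with overlapping groups. Of 15 macrophage lineage factors 10 were higher in macrophages and 1 in eosinophils. The interferon regulatory factor Irf8 averaged 67.4 against 383 CPM, log2 difference -2.54, and the related lysosomal factors Mitf and Tfec 4.84 against 36.1 CPM, log2 difference -2.86, and 0.388 against 10.7 CPM, log2 difference -3.11. The exception was Spi1, which encodes PU.1. It had 2202 to 5379 CPM (median 4055) in the eosinophil libraries and 859 to 1967 CPM (median 1136) in the macrophage libraries, so that all 7 eosinophil libraries lay above all macrophage libraries, by 1.56 ± 0.26 (adjusted p = 0.000106). Cebpb (242 against 247 CPM) and Zeb2 (353 against 244 CPM) were not called.

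Macrophage identity receptors were the reverse of the eosinophil ones: 11 of 13 tested were higher in macrophages and none in eosinophils, median difference -3.92. Cx3cr1, the fractalkine receptor of gut macrophages, had 1.98 to 10.6 CPM (median 3.40) in the eosinophil libraries and 202 to 329.8 CPM (median 246) in the macrophage libraries, a difference of -5.44 ± 0.31 (adjusted p = 5.42e-10). Fcgr1, the high-affinity IgG receptor CD64, had 0.179 to 3.54 CPM (median 1.56) in the eosinophil libraries and 34.0 to 79.4 CPM (median 67.8) in the macrophage libraries, a difference of -4.62 ± 0.32 (adjusted p = 6.08e-09). Mertk, which recognises apoptotic cells, had 0.245 to 1.98 CPM (median 0.870) in the eosinophil libraries and 21.3 to 50.6 CPM (median 41.8) in the macrophage libraries, a difference of -4.32 ± 0.27 (adjusted p = 1.67e-09). Eosinophil levels of all 3 were a few CPM or less. The mannose receptor Mrc1 averaged 2.2 against 109.8 CPM, log2 difference -5.26, Cd68 averaged 13.5 against 315 CPM, log2 difference -4.51 and the co-receptor for lipopolysaccharide Cd14 averaged 273 against 1339 CPM, log2 difference -2.40. Adgre1 and Sirpa (333 against 366 CPM), the receptor for CD47, were not called.

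Transcripts of genes for the uptake of dying cells and debris mostly followed the same side. Of 17 scavenger and apoptotic cell receptors, 15 were higher in macrophages and 2 in eosinophils (median -2.15). Msr1, scavenger receptor A, averaged 5.83 against 227 CPM, log2 difference -5.47, the receptor tyrosine kinase Axl 19.6 against 278 CPM, log2 difference -3.92, the endocytic receptor Lrp1 5.69 against 64.4 CPM, log2 difference -3.36 and the lipid sensor Trem2 1.01 against 24.1 CPM, log2 difference -3.79. Its signalling adaptor Tyrobp was one of the exceptions, at 809.9 against 358 CPM, log2 difference 1.13, with groups that overlapped. The other was Tgm2, transglutaminase 2, which had 1369 to 4647 CPM (median 2553) in the eosinophil libraries and 328 to 556 CPM (median 426) in the macrophage libraries and a difference of 2.68 ± 0.26 (adjusted p = 3.31e-07), with no overlap.

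Complement genes were divided, with 6 of 12 higher in macrophages and 4 in eosinophils. The 3 chains of C1q, adjacent on chromosome 4 (chr4:136895917-136898803, chr4:136889804-136893065 and chr4:136880129-136886187, minus strand), were all higher in macrophages. C1qa had 10.3 to 28.9 CPM (median 16.6) in the eosinophil libraries and 907 to 1207 CPM (median 1005) in the macrophage libraries, a difference of -5.88 ± 0.21 (adjusted p = 4.98e-12), and C1qc and C1qb differed by -5.43 ± 0.22 and -4.03 ± 0.26. Properdin, Cfp, averaged 188 against 445 CPM, log2 difference -1.31. On the eosinophil side were the regulators Cd55 (55.4 against 11 CPM, log2 difference 2.14) and Serping1, the C1 inhibitor (56.2 against 15.9 CPM, log2 difference 1.70), with C2 and Cr1l called at overlapping levels. C3 (136 against 186 CPM) and the C5a receptor C5ar1 (46.6 against 44.3 CPM) were not called.

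Of 13 genes of the MHC class II pathway, 12 were higher in macrophages, none in eosinophils, and the median difference was -4.02. H2-Aa (chr17:34282744-34287823), whose promoter with 1 Y box core is shown above, had 313 to 943 CPM (median 473) in the eosinophil libraries and 10000 to 12920 CPM (median 10380) in the macrophage libraries, a difference of -4.33 ± 0.23 (adjusted p = 2.79e-10). H2-Ab1, which pairs with H2-Aa, averaged 869.7 against 10930 CPM, log2 difference -3.73. H2-Eb1 had 285 to 536 CPM (median 398) in the eosinophil libraries and 7274 to 9464 CPM (median 8089) in the macrophage libraries, a difference of -4.43 ± 0.17 (adjusted p = 9.42e-12). Cd74 had 2775 to 5002 CPM (median 3929) in the eosinophil libraries and 50920 to 75760 CPM (median 61810) in the macrophage libraries, a difference of -4.02 ± 0.22 (adjusted p = 3.71e-10). No eosinophil library came near a macrophage library in these chains, although their eosinophil levels were well above 0. The eosinophil mean was 5.29% of the macrophage mean for H2-Aa, 4.71% for H2-Eb1, 6.23% for Cd74 and 6.86% for the peptide editor H2-DMa. The transactivator Ciita, master regulator of the pathway, had 3.16 to 6.58 CPM (median 4.43) in the eosinophil libraries and 90.9 to 151 CPM (median 122) in the macrophage libraries, a difference of -4.44 ± 0.19 (adjusted p = 2.37e-11). Rfx5, which binds the promoters of the whole pathway, was at 6.19 against 5.85 CPM and not called. H2-Oa and H2-Ob, typical of B cells, were called with overlapping groups, H2-Oa in 15 of 27 alternatives, and without macrophage libraries 1 and 2 the count was 10 of 13.

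MHC class I was not divided in that way. Of 16 genes of class I presentation, 6 were higher in macrophages and 3 in eosinophils, near the shares over all genes tested (30.5% and 19.5%). H2-D1, a class I heavy chain, had 1148 to 3262 CPM (median 2458) in the eosinophil libraries and 826 to 979 CPM (median 852) in the macrophage libraries, a difference of 1.30 ± 0.22 (adjusted p = 0.000146), and beta-2 microglobulin B2m averaged 10600 against 5468 CPM, log2 difference 0.92 with overlapping groups. The oxidoreductase Pdia3 of the loading complex was higher in macrophages, at 36.5 against 185 CPM, log2 difference -2.29, as was calreticulin, Calr, at 279.9 against 466 CPM, log2 difference -0.76. Tapasin, Tapbp, was higher in eosinophils at 1066 against 613 CPM, log2 difference 0.77, with overlapping groups. The heavy chain H2-K1 (933 against 717 CPM), the transporter Tap1 (136 against 120 CPM) and the immunoproteasome subunit Psmb8 (389 against 396 CPM) were not called. Totals of all reads gave 9 genes higher in macrophages and 3 in eosinophils, and leaving out eosinophil libraries 2 and 3 gave 3 and 4.

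Lysosomal enzymes were higher in macrophages in 19 of 21 genes and in eosinophils in none (median -2.18). Ctss, the cathepsin that trims the invariant chain, had 124 to 280.4 CPM (median 215) in the eosinophil libraries and 3241 to 4784 CPM (median 4271) in the macrophage libraries, a difference of -4.38 ± 0.19 (adjusted p = 2.37e-11). Ctsc, which activates granule serine proteases, averaged 124 against 1572 CPM, log2 difference -3.72, the asparaginyl protease Lgmn 6.19 against 144 CPM, log2 difference -4.37, prosaposin, Psap, 103 against 794 CPM, log2 difference -2.95 and granulin, Grn, 314 against 1540 CPM, log2 difference -2.31. Ctsb averaged 1020 against 3375 CPM, log2 difference -1.72 and the cholesterol carrier Npc2 72.2 against 417 CPM, log2 difference -2.51. The membrane proteins Lamp1 (1667 against 1813 CPM) and Lamp2 (163 against 198 CPM) were not called. In Lamp1 the 95% interval was -0.52 to 0.31, so the membrane marker differed by less than 2-fold while the enzymes inside differed by more. Of 14 genes of lipid uptake, storage and export, 10 were higher in macrophages and 1 in eosinophils. Apoe had 266 to 745 CPM (median 396) in the eosinophil libraries and 9523 to 16540 CPM (median 10780) in the macrophage libraries, a difference of -4.74 ± 0.24 (adjusted p = 1.64e-10). The phospholipid transfer protein Pltp averaged 29.2 against 415 CPM, log2 difference -3.99, the cholesterol ester hydrolase Nceh1 8.76 against 71.9 CPM, log2 difference -2.90 and the cholesterol exporter Abca1 116 against 380.4 CPM, log2 difference -1.70. Acat2, of acetyl-CoA metabolism, was the member higher in eosinophils (17.5 against 10.1 CPM, log2 difference 0.72), with overlapping groups.

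Chemokines fell into 2 sets. Of 13 CXC chemokines 7 were higher in macrophages and 3 in eosinophils, and of 12 CC chemokines 6 and 3. Ccl6, a mouse CC chemokine of myeloid cells, had 4679 to 9841 CPM (median 5442) in the eosinophil libraries and 290 to 424 CPM (median 339) in the macrophage libraries, a difference of 4.21 ± 0.19 (adjusted p = 4.95e-11). Ccl9 had 1435 to 4214 CPM (median 3106) in the eosinophil libraries and 477 to 709.8 CPM (median 539.6) in the macrophage libraries, a difference of 2.23 ± 0.25 (adjusted p = 2.16e-06). Ccl3 averaged 1285 against 310 CPM, log2 difference 1.88 and the neutrophil attractant Cxcl2 4378 against 1693 CPM, log2 difference 1.31. These 4 genes were the ones higher in eosinophils without overlap. Cxcl5 (75.7 against 38.3 CPM, log2 difference 0.97), another neutrophil attractant, was called with overlap. Macrophages had more of the platelet factor Pf4 (7.63 against 193 CPM, log2 difference -4.74), of the T cell attractants Cxcl9 (20.1 against 223 CPM, log2 difference -3.35) and Cxcl16 (41.6 against 588 CPM, log2 difference -3.85), of Ccl22 (5.96 against 121 CPM, log2 difference -4.26) and Ccl17 (2.46 against 19.0 CPM, log2 difference -2.68), which act on CCR4, of the monocyte attractants Ccl8 (13.6 against 159 CPM, log2 difference -3.57) and Ccl12 (0.928 against 42.4 CPM, log2 difference -4.69). They also had more of the eosinophil attractant Ccl24, eotaxin-2, at 0.311 against 17.6 CPM, log2 difference -3.51. Ccl2 (139 against 189 CPM), Ccl4 (727 against 565 CPM) and Cxcl10 (348 against 539 CPM) were not called.

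Receptors for chemokines and other attractants were also divided, 5 of 12 higher in macrophages and 4 in eosinophils. The monocyte receptor Ccr2 averaged 4.11 against 67.7 CPM, log2 difference -3.88. The platelet-activating factor receptor Ptafr was higher in eosinophils, with 1231 to 2929 CPM (median 2126) in the eosinophil libraries and 423 to 702 CPM (median 532) in the macrophage libraries and a difference of 1.89 ± 0.22 (adjusted p = 3.26e-06), as was Cxcr4, the receptor of CXCL12 (1703 against 529.9 CPM, log2 difference 1.65). Cxcr2 (19.2 against 2.71 CPM, log2 difference 2.38) is also a neutrophil marker. Without eosinophil libraries 2 and 3, 7 receptors were higher in eosinophils and 4 in macrophages. Of 14 leukocyte integrins and adhesion molecules, 7 were higher in eosinophils and 4 in macrophages. Itgb7, part of the gut-homing receptor, had 134 to 424 CPM (median 330.3) in the eosinophil libraries and 16.8 to 62.2 CPM (median 27.0) in the macrophage libraries, a difference of 3.32 ± 0.29 (adjusted p = 1.1e-07), and its partner Itga4 averaged 436 against 125 CPM, log2 difference 1.65. The integrin beta chains 3 and 5 were opposed, Itgb3 at 219 against 14.5 CPM, log2 difference 3.94 and Itgb5 at 10.1 against 249.5 CPM, log2 difference -4.52. Itgax, which encodes CD11c, averaged 509.5 against 911 CPM, log2 difference -0.85. The common chain Itgb2, CD18, averaged 2971 against 1031 CPM, log2 difference 1.48.

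Of 21 cytokines tested, 8 were higher in macrophages and 5 in eosinophils, where 30.5% and 19.5% of all genes tested were. Il10, an inhibitory cytokine of gut macrophages, had 0.245 to 3.19 CPM (median 1.93) in the eosinophil libraries and 78.1 to 173 CPM (median 122) in the macrophage libraries, a difference of -5.47 ± 0.29 (adjusted p = 2.68e-10). Il12b, a chain of interleukins 12 and 23, averaged 2.30 against 71.9 CPM, log2 difference -4.46, and Tgfb1 123 against 264 CPM, log2 difference -1.25. Il1b was high in both, with 818 to 3687 CPM (median 2412) in the eosinophil libraries and 3155 to 7018 CPM (median 4825) in the macrophage libraries, and the called difference of -1.25 came with overlapping groups. Csf1, the ligand of CSF1R, was higher in eosinophils: it had 33.0 to 298 CPM (median 215) in the eosinophil libraries and 11.4 to 19.7 CPM (median 14.4) in the macrophage libraries, a difference of 3.28 ± 0.40 (adjusted p = 5.04e-06), without overlap. The ligand Csf1 and its receptor Csf1r thus differed in opposite directions between the cell types. Il4 had 4.06 to 9.44 CPM (median 5.86) in the eosinophil libraries and 0 to 0.253 CPM (median 0) in the macrophage libraries, a difference of 2.85 ± 0.24 (adjusted p = 5.13e-08). Il16 (67.5 against 16.9 CPM, log2 difference 1.90), Ebi3 (154 against 48.1 CPM, log2 difference 1.59) and Tnfsf14, the ligand LIGHT (35.2 against 5.92 CPM, log2 difference 2.35), were the other cytokines higher in eosinophils. Il1a (844 against 853 CPM), Il1rn (1521 against 1087 CPM), Tnf (167 against 217 CPM) and Il6 (7.62 against 17.9 CPM) were not called. For Il6, 10 of 26 alternatives called it higher in macrophages.

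Of 24 cytokine receptors and signal inhibitors, 12 were higher in macrophages and 6 in eosinophils. Pim1, a kinase induced by STAT5, had 2090 to 9841 CPM (median 7417) in the eosinophil libraries and 850.4 to 1231 CPM (median 1085) in the macrophage libraries, a difference of 2.54 ± 0.30 (adjusted p = 3.86e-06). Socs3, an inhibitor of STAT3 signalling, averaged 136 against 525 CPM, log2 difference -1.93, Tgfbr1 37.8 against 102 CPM, log2 difference -1.44 and Il4ra 84.3 against 207 CPM, log2 difference -1.42, all higher in macrophages. Il18rap, a chain of the interleukin-18 receptor, averaged 40.1 against 8.17 CPM, log2 difference 2.16, with overlapping groups. Growth and angiogenic factors were mostly on the macrophage side, 10 of 17 against 2. Osteopontin, Spp1, averaged 5.46 against 111 CPM, log2 difference -4.18, fibronectin, Fn1, 21.6 against 166 CPM, log2 difference -3.02 and the stress-induced factor Gdf15 8.66 against 124 CPM, log2 difference -3.56. The exceptions were thrombospondin 1, Thbs1, with 401 to 1296 CPM (median 581) in the eosinophil libraries and 135 to 296 CPM (median 187) in the macrophage libraries and a difference of 1.74 ± 0.29 (adjusted p = 0.00011), and Wnt11, at 25.3 against 1.65 CPM, log2 difference 3.21. Vegfa, the main vascular growth factor, averaged 273 against 356 CPM and was not called (difference -0.43 ± 0.21, adjusted p = 0.101), although 3 alternatives called it.

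Matrix proteases were divided by member. Of 18 metalloproteinases and protease inhibitors, 9 were higher in macrophages and 6 in eosinophils. Mmp12, the macrophage elastase, averaged 2.95 against 123 CPM, log2 difference -5.21, Mmp14 19.1 against 235 CPM, log2 difference -3.65 and Mmp13 9.51 against 124 CPM, log2 difference -3.89. Serpinb2, an inhibitor of plasminogen activation, was higher in eosinophils. It had 48.2 to 176 CPM (median 72.3) in the eosinophil libraries and 0.579 to 4.36 CPM (median 2.04) in the macrophage libraries, a difference of 4.86 ± 0.32 (adjusted p = 3.71e-09). The urokinase Plau that it inhibits averaged 0.510 against 5.51 CPM, log2 difference -2.06. Mmp25 (36.7 against 4.26 CPM, log2 difference 2.83) and Adam8 (158 against 41.3 CPM, log2 difference 1.88) were higher in eosinophils, as was Mmp9 (90.6 against 12.1 CPM, log2 difference 3.12), which overlapped and is also a neutrophil marker.

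In 3 lists of innate receptors and their signalling, more genes were higher in macrophages than in eosinophils. The counts were 8 of 16 against 3 in Toll-like receptor signalling and 9 of 12 against 1 in C-type lectins. A list of Fc receptors and others gave 7 of 10 against 1, the 1 being Pilrb1, which is not an Fc receptor. Ly86, the partner of Cd180, had 1.47 to 5.21 CPM (median 3.05) in the eosinophil libraries and 88.2 to 199 CPM (median 153) in the macrophage libraries, a difference of -5.14 ± 0.24 (adjusted p = 5.91e-11). Tlr2 averaged 10.1 against 72.7 CPM, log2 difference -2.74 and Tlr7, a receptor of single-stranded RNA, 0.739 against 11.3 CPM, log2 difference -2.93. The lectins Clec7a, dectin-1, Clec4a1 and Clec4a3 averaged 406 against 1185 CPM, 5.44 against 62.9 CPM and 8.25 against 83.8 CPM, and the inhibitory Fc receptor Fcgr2b 34.7 against 293 CPM, log2 difference -3.10. The differences of the 3 lectins were -1.70, -3.34 and -3.23. Eosinophils had more of the inhibitory lectin Clec12a (44.9 against 16.4 CPM, log2 difference 1.37), of Irak3, which restrains the pathway (210.2 against 52.8 CPM, log2 difference 1.88), of the adaptor Tirap (16.3 against 7.94 CPM, log2 difference 0.93), and of the activating receptor Pilrb1 (66.0 against 20.4 CPM, log2 difference 1.54), while its inhibitory counterpart Pilra averaged 90.1 against 193 CPM, log2 difference -1.19. Fcer1g, the shared signalling chain, was at 854 against 1092 CPM and not called, nor was the kinase Irak2 (431 against 323 CPM).

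Of 15 T cell checkpoint ligands and costimulators, 8 were higher in macrophages and 2 in eosinophils. Cd86 had 2.33 to 8.31 CPM (median 4.69) in the eosinophil libraries and 71.4 to 181 CPM (median 139) in the macrophage libraries, a difference of -4.45 ± 0.25 (adjusted p = 4.07e-10). Cd40 averaged 12.1 against 147 CPM, log2 difference -3.55, Havcr2, which encodes TIM-3, 4.72 against 57.1 CPM, log2 difference -3.40, and the poliovirus receptor Pvr 58.2 against 192 CPM, log2 difference -1.65. Cd274, which encodes PD-L1, had 71.5 to 661 CPM (median 516) in the eosinophil libraries and 105 to 309 CPM (median 153) in the macrophage libraries, with overlapping groups and no call (difference 0.77 ± 0.48, adjusted p = 0.196). Cd274 was called higher in eosinophils in 3 of 27 alternatives. Vsir, which encodes VISTA, was level, with a difference of -0.04 ± 0.21 and a 95% interval of -0.48 to 0.41. Cd244 (71.5 against 20.9 CPM, log2 difference 1.66) and galectin 9, Lgals9 (1516 against 954 CPM, log2 difference 0.67), were higher in eosinophils, the second with overlapping groups and a call lost in 1 alternative.

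Enzymes of lipid mediators were split, with 6 of 15 higher in eosinophils, 4 in macrophages and 5 not called. Their median difference of 0.04 turned to -0.30 with totals of all reads. Alox5, 5-lipoxygenase, had 244 to 1208 CPM (median 773) in the eosinophil libraries and 1.62 to 16.3 CPM (median 6.39) in the macrophage libraries, a difference of 6.81 ± 0.43 (adjusted p = 1.95e-09). Alox15, 12/15-lipoxygenase (chr11:70344152-70352031), had 213 to 616 CPM (median 349) in the eosinophil libraries and 2.29 to 3.79 CPM (median 2.68) in the macrophage libraries, a difference of 6.55 ± 0.23 (adjusted p = 4.27e-12). Neither gene overlapped between the groups. Lta4h, which makes leukotriene B4, averaged 99.3 against 15.9 CPM, log2 difference 2.59, the activating protein Alox5ap 413 against 104 CPM, log2 difference 1.92, and the platelet-activating factor hydrolase Pla2g7 7395 against 1716 CPM, log2 difference 2.15. Ltc4s, which makes leukotriene C4, was at 51.2 against 46.6 CPM and not called (interval -0.79 to 0.87). The 4 genes higher in macrophages act on prostaglandins: Hpgds, the hematopoietic prostaglandin D synthase, averaged 7.07 against 69.6 CPM, log2 difference -3.17, Ptgs1 14.8 against 78.6 CPM, log2 difference -2.41, Hpgd 1.37 against 7.43 CPM, log2 difference -1.83 and Ptgs2 107 against 380 CPM, log2 difference -1.84, the last with overlapping groups. The prostaglandin E synthases Ptges (8.68 against 9.04 CPM) and Ptges3 (243 against 268 CPM) and the thromboxane synthase Tbxas1 (61.3 against 61.4 CPM) were not called, nor was Alox12 (31.2 against 13.2 CPM).

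Of 13 genes of arginine, nitric oxide and polyamine metabolism, 5 were higher in macrophages and 1 in eosinophils. Ass1, which remakes arginine from citrulline, had 5.97 to 18.9 CPM (median 12) in the eosinophil libraries and 146 to 380 CPM (median 218) in the macrophage libraries, a difference of -4.27 ± 0.27 (adjusted p = 1.67e-09). The arginine transporter Slc7a2 averaged 9.11 against 104 CPM, log2 difference -3.34 and ornithine decarboxylase, Odc1, 75.9 against 354 CPM, log2 difference -2.18. Gatm, the first enzyme of creatine synthesis, averaged 0.563 against 32.2 CPM, log2 difference -4.40. Sms, spermine synthase, was the member higher in eosinophils (22.6 against 12 CPM, log2 difference 0.90). Neither arginase 1 (96.9 against 177 CPM) nor inducible nitric oxide synthase Nos2 (26.0 against 44.8 CPM), the usual labels of macrophage polarization, was called. Arginase 1 was called higher in macrophages in 9 of 27 alternatives, and Nos2 in none. Genes of extracellular nucleotides were evenly split, 5 of 14 in each direction. P2ry2, a receptor for ATP and UTP, averaged 274 against 30.2 CPM, log2 difference 3.16 and the ectonucleotidase Entpd3 21.6 against 1.95 CPM, log2 difference 3.00, while P2rx7, the ATP channel upstream of the inflammasome, averaged 3.85 against 33.7 CPM, log2 difference -3.03 and the UDP receptor P2ry6 10.7 against 75.8 CPM, log2 difference -2.80. The ectonucleotidase Entpd1, CD39, averaged 267 against 131 CPM, log2 difference 0.92, with overlapping groups. Of 11 inflammasome genes, 6 were higher in macrophages, with Nlrp3 at 140.2 against 358 CPM, log2 difference -1.43, the DNA sensor Aim2 at 13.7 against 39.6 CPM, log2 difference -1.45 and the flagellin-responsive Nlrc4 at 6.5 against 19.1 CPM, log2 difference -1.49. Txnip, a thioredoxin inhibitor, was higher in eosinophils at 110.2 against 31.1 CPM, log2 difference 1.78, and caspase 1 (47.9 against 51.6 CPM) was not called.

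Oxidant genes leaned to eosinophils: 4 of 8 genes of the NADPH oxidase and its proton channel were higher in eosinophils and 1 in macrophages. Ncf1, the cytosolic organizer p47phox, had 2275 to 6224 CPM (median 4075) in the eosinophil libraries and 279 to 446 CPM (median 399) in the macrophage libraries, a difference of 3.39 ± 0.24 (adjusted p = 9.64e-09). Cybb, the catalytic subunit, was level at 1547 against 1697 CPM, with a 95% interval of -0.52 to 0.20. The proton channel Hvcn1 was higher in macrophages (34.2 against 103 CPM, log2 difference -1.57). Neutrophils carry the same oxidase, and the part of the neutrophil markers in these levels was not tested. Antioxidant genes were 6 of 18 higher in macrophages and 3 in eosinophils, with 11 and 3 under totals of all reads and 4 and 5 under median-of-ratios factors. With the joint scaling, the counts were near the shares over all genes tested (30.5% and 19.5%). Glutathione reductase Gsr averaged 340 against 80.9 CPM, log2 difference 2.07 and the glutathione peroxidases Gpx4 and Gpx1 643 against 203 CPM, log2 difference 1.63, and 1688 against 863 CPM, log2 difference 0.98, whereas the regulator Nfe2l2 averaged 169 against 394 CPM, log2 difference -1.23 and peroxiredoxin Prdx1 44.3 against 121 CPM, log2 difference -1.61. Of 15 genes of iron and heme handling, 7 were higher in macrophages and 3 in eosinophils. Hmox1, which breaks down heme, had 20.6 to 33.9 CPM (median 25.3) in the eosinophil libraries and 324 to 689 CPM (median 508) in the macrophage libraries, a difference of -4.17 ± 0.18 (adjusted p = 2.27e-11). Transferrin, Trf, averaged 29.5 against 178 CPM, log2 difference -2.57, and the ferritin chain Fth1 2500 against 3667 CPM, log2 difference -0.66, a call lost in 15 alternatives. The siderophore binder Lcn2, which is also a neutrophil marker, averaged 445 against 93.2 CPM, log2 difference 2.48 and the metalloreductase Steap4 23.1 against 7.30 CPM, log2 difference 1.53.

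Interferon genes showed no single direction. Of 16 interferon-gamma response genes 3 were higher in macrophages and none in eosinophils. Cxcl9 and Gbp3 (31.2 against 106 CPM, log2 difference -1.84) were the clear ones, and Irf1 (566 against 325 CPM) and Gbp2 (658 against 365 CPM) were not called. The median difference of -0.13 turned to 0.09 in edgeR and 0.30 in DESeq2, and without eosinophil libraries 2 and 3 the list had 7 genes higher in eosinophils and 3 in macrophages. Of 21 type I interferon-stimulated genes, 7 were higher in eosinophils and 5 in macrophages, with a median of -0.05 that turned to 0.08 with median-of-ratios factors and to 0.29 in DESeq2. Irf7, the regulator that amplifies the response, had 358 to 897 CPM (median 667) in the eosinophil libraries and 123 to 218 CPM (median 149.7) in the macrophage libraries, a difference of 1.93 ± 0.23 (adjusted p = 3.7e-06), and Bst2, tetherin, had 11.6 to 21.8 CPM (median 17.8) in the eosinophil libraries and 111 to 222 CPM (median 169) in the macrophage libraries, a difference of -3.20 ± 0.20 (adjusted p = 1.55e-09). Irf9, a subunit of the activating complex, averaged 135 against 57.4 CPM, log2 difference 1.18, Ifitm3, which blocks viral entry, 952 against 564 CPM, log2 difference 0.75 and the antiviral GTPase Mx1 1.01 against 6.66 CPM, log2 difference -2.07, the last 2 with overlapping groups. Isg15 (264 against 215 CPM) was not called.

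Genes of the immediate stress response differed by family. Of 14 heat shock proteins and chaperones, 12 were higher in macrophages and none in eosinophils (median -1.59). Hspa1a, inducible HSP70, averaged 85.5 against 708 CPM, log2 difference -2.77, its constitutive relative Hspa8 51.1 against 178 CPM, log2 difference -1.77, and the endoplasmic reticulum chaperones Hspa5 and Hsp90b1 769.7 against 2332 CPM, log2 difference -1.61, and 107 against 321 CPM, log2 difference -1.57. Of 21 AP-1 and immediate-early genes, 6 were higher in macrophages and 5 in eosinophils, with Fos at 306 against 1374 CPM, log2 difference -2.10 and Egr2 at 20.2 against 72.6 CPM, log2 difference -1.80 on the macrophage side, and Fosl2 at 223 against 115 CPM, log2 difference 0.93, Fosl1 at 31.5 against 7.56 CPM, log2 difference 1.78 and Klf2 at 433 against 139 CPM, log2 difference 1.67 on the other. Those counts were near the shares over all genes tested, 30.5% and 19.5%. Jun (2583 against 1765 CPM) was not called. Their median was 0.17 and turned to -0.18 with totals of all reads. Of 16 NF-kB subunits and inhibitors, 4 were higher in eosinophils and 1 in macrophages, with the inhibitors Nfkbia at 3764 against 1830 CPM, log2 difference 1.03 and Nfkbid at 2006 against 499 CPM, log2 difference 1.98. Tnip1, which restrains the pathway, averaged 25.3 against 62.9 CPM, log2 difference -1.30. Totals of all reads gave 3 and 4 there, with a median of -0.06 in place of 0.28. Of 17 regulators of apoptosis, 6 were higher in macrophages and 4 in eosinophils, near the shares over all genes tested (30.5% and 19.5%). The inhibitor of apoptosis Birc3 averaged 459 against 146 CPM, log2 difference 1.61 and Cflar, an inhibitor of caspase 8, 85.0 against 252 CPM, log2 difference -1.59. The survival factors Bcl2l1 and Bcl2a1d were opposed, at 128 against 73.5 CPM, log2 difference 0.74, and at 5.58 against 20.9 CPM, log2 difference -1.80. Mcl1, a survival factor of granulocytes, averaged 847 against 588 CPM, log2 difference 0.51, with overlapping groups and a call lost in 2 alternatives. Bcl2l11, which encodes BIM (335 against 182 CPM), was not called.

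Energy genes did not share 1 direction, and nuclear and mitochondrial genes of the respiratory chain differed in opposite ways. Of 22 glycolytic genes and HIF-1 targets, 10 were higher in eosinophils and 5 in macrophages, and the median of 0.05 turned to -0.30, with counts of 6 and 9, under totals of all reads. Slc2a3, a high-affinity glucose transporter, had 114 to 170 CPM (median 141) in the eosinophil libraries and 2.40 to 12 CPM (median 4.21) in the macrophage libraries, a difference of 4.65 ± 0.26 (adjusted p = 4.01e-10), and the lactate exporter Slc16a3 averaged 1488 against 276 CPM, log2 difference 2.37. Aldolase, Aldoa, averaged 2428 against 857 CPM, log2 difference 1.49, and pyruvate kinase, Pkm, 4077 against 2188 CPM, log2 difference 0.90, the latter with overlapping groups. The hexokinase Hk2 (44.6 against 104 CPM, log2 difference -1.21) and the regulator Pfkfb3 (13.2 against 46.0 CPM, log2 difference -1.67) were higher in macrophages, and Hif1a itself (216 against 248 CPM) was not called. Nuclear genes of the respiratory chain were higher in macrophages in 16 of 26 and in eosinophils in 3 (median -0.67). Transcripts encoded by mitochondrial DNA were the reverse, 9 of 13 higher in eosinophils and 1 in macrophages (median 1.36). Of the nuclear genes, Uqcrfs1 and Ndufb8, subunits of complexes III and I, differed by -0.94 and -0.99, and the exceptions were cytochrome c, Cycs (459 against 195 CPM, log2 difference 1.30), Uqcrq (203 against 122 CPM, log2 difference 0.72) and Cox8a (960.3 against 653 CPM, log2 difference 0.57), the last with overlapping groups and a call lost in 1 alternative. Of the mitochondrial genes, mt-Atp6 averaged 130100 against 34010 CPM, log2 difference 1.87, mt-Nd4 and mt-Nd4l differed by 1.91 and 1.64, and mt-Nd6, encoded on the other strand, by -1.57. Eosinophil libraries 2 and 3 had the highest mitochondrial shares, and without them the counts for this list were 9 and 1.

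Cytosolic ribosomal protein genes were higher in macrophages in 20 of 26 and in eosinophils in none (median -0.79). Rps19 and Rps4x differed by -2.05 and -1.93, and Rpl4 (5625 against 6783 CPM) was not called. Of 18 cell cycle genes, 12 were higher in macrophages and none in eosinophils, with the proliferation marker Mki67 at 43.7 against 117 CPM, log2 difference -1.42, the replication helicase subunit Mcm3 at 3.82 against 22.2 CPM, log2 difference -2.32 and the tubulin Tubb5 at 174 against 341 CPM, log2 difference -1.15. That count was 8 without macrophage libraries 1 and 2, and 8 in DESeq2.

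**Figure D4:**
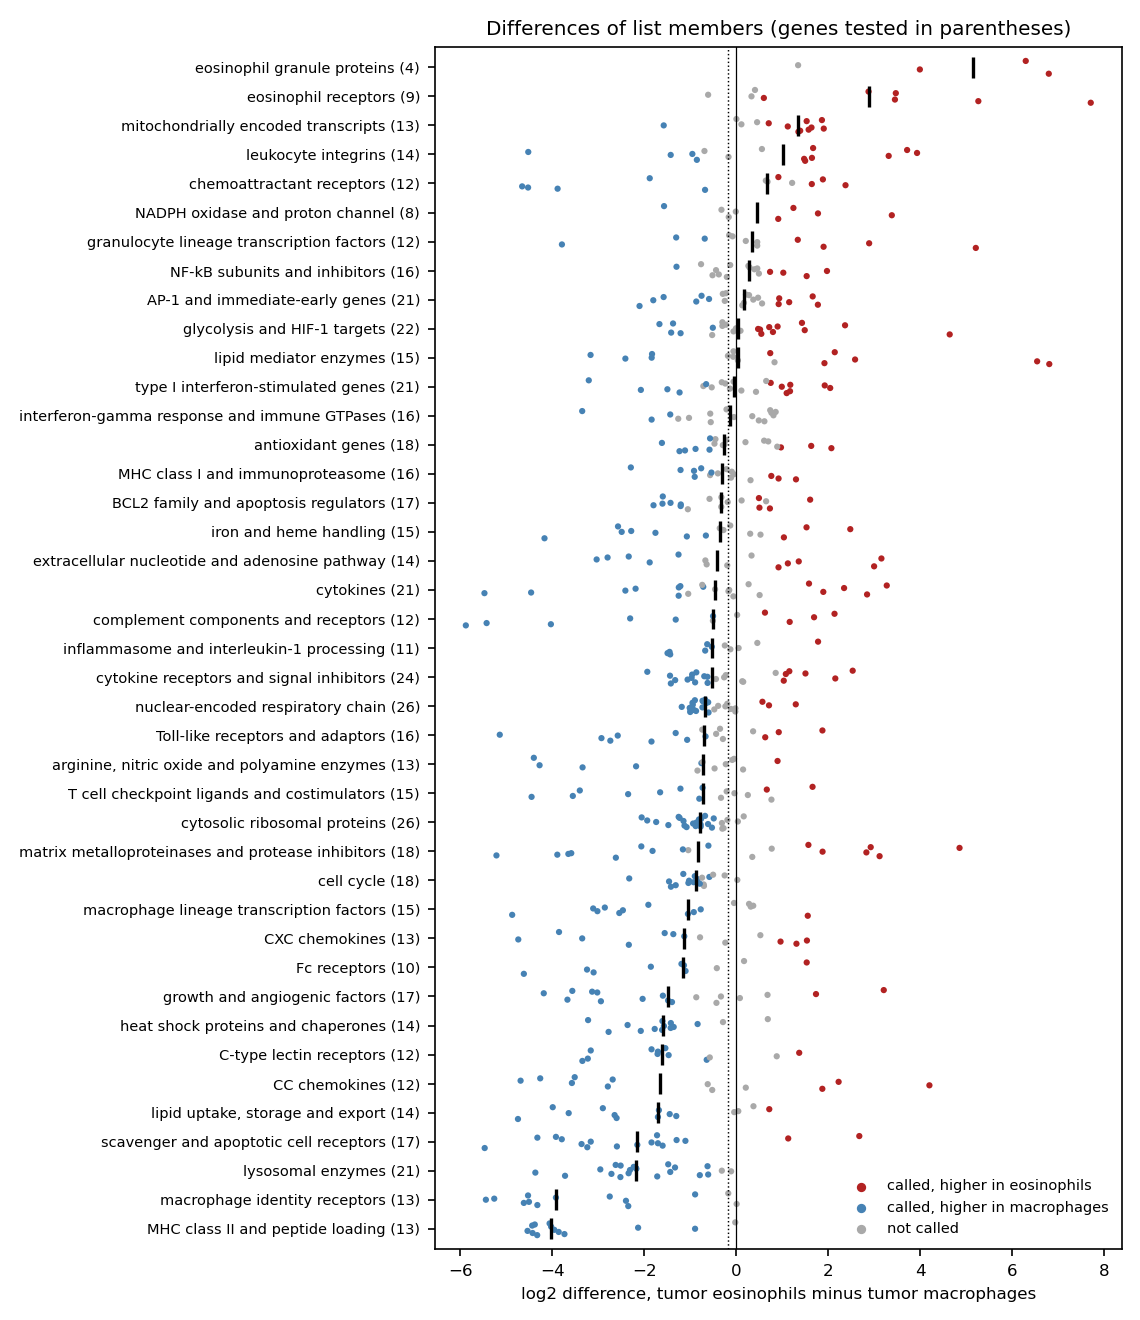
Log2 difference (tumor eosinophils minus tumor macrophages) of every tested member of 41 gene lists, 1 point per gene, with called genes colored, a black bar at each list's median and a dotted line at the median of all genes tested (-0.18). Eosinophil granule proteins and receptors lie on the right, and MHC class II, macrophage identity receptors and lysosomal enzymes on the left.

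Similarity was measured as well as difference. Of 7138 tested genes with a mean of 10 CPM or more, 2758 (38.6%) had a 95% interval within 2-fold in both directions. Of 611 listed genes at that level, 126 (20.6%) did. Among them were the membrane protein Lamp1, the oxidase subunit Cybb, the glycolytic enzyme Pgk1 (interval -0.36 to 0.36), galectin 3 (477 against 484 CPM, interval -0.37 to 0.29), the immunoproteasome subunit Psmb8 (interval -0.50 to 0.40) and the checkpoint molecule Vsir. Adgre1 belongs here too. The count depended on the pseudocount and on 2 libraries: it was 3512 with a pseudocount of 5 CPM and 2222 without macrophage libraries 1 and 2.

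The difference between the cell types in tumors was then set against the one in naive colon. The question is whether the gap between eosinophils and macrophages itself differs, and a positive value means that the eosinophil minus macrophage difference was higher in tumors. Of 15166 genes tested over all 20 libraries, 662 (4.37%) differed at an adjusted p under 0.05, 262 upward (1.73%) and 400 downward (2.64%). This count rests on the naive eosinophils, of which there were 2 libraries. It rose when naive eosinophil library 1 was left out and fell when library 2 was, by more than for any other library. In both fits the lone library left is assumed to vary like the other groups. The downward count was 261 without naive macrophage library 1 and 264 without tumor macrophage library 6.

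Of 13 MHC class II genes, 7 differed upward and none downward (median 2.27). H2-DMa averaged 45.3 ± 9.79 CPM in tumor eosinophils against 13.2 and 5.31 CPM in the naive eosinophil libraries, and 629 ± 44.6 CPM in tumor against 1111 ± 204 CPM in naive macrophages (SD, n = 7, 6 and 5). Its difference of differences was 3.07 ± 0.32 (adjusted p = 5.23e-06). For Cd74 it was 2.61 ± 0.42 (adjusted p = 0.000721), with 1458 and 607 CPM in naive eosinophils. Both H2-DMa and Cd74 stayed lower in eosinophils than in macrophages in tumors, as shown above. Type I interferon-stimulated genes differed upward in 8 of 21 and CC chemokines in 5 of 12, Ccl2 by 5.10 ± 0.66 (adjusted p = 6.75e-05), with 6.10 and 50.0 CPM in naive eosinophils and 915 ± 247 CPM in naive macrophages.

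For 3 of the best separated genes the 4 groups were as follows. Cd163, a scavenger receptor for hemoglobin, averaged 48.6 ± 17.5 CPM in naive macrophages and 0.554 ± 0.168 CPM in tumor macrophages, and had at most 1.01 CPM in any eosinophil library. Its difference of differences was 5.53 ± 0.42 (adjusted p = 4.4e-08). Cbr2, a carbonyl reductase, averaged 285 ± 120.1 CPM in naive and 27.4 ± 17.6 CPM in tumor macrophages, with 41.0 and 18.1 CPM in naive and 211 ± 44.6 CPM in tumor eosinophils, and the sign of the cell type difference was opposite in the 2 tissues (difference of differences 6.34 ± 0.59, adjusted p = 5.45e-07). Marcks, a membrane-bound actin regulator, was at 8.24 and 11.3 CPM in naive and 78.2 ± 31.5 CPM in tumor eosinophils and at 312 ± 25.0 CPM in naive and 269.9 ± 9.23 CPM in tumor macrophages (3.02 ± 0.34, adjusted p = 1.18e-05). Jaml, an adhesion molecule of myeloid cells, and ceruloplasmin, Cp, gave 4.39 ± 0.40 and 3.47 ± 0.41.

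Genes that differed downward did not share 1 pattern. Vegfa was at 729 and 1724 CPM in naive eosinophils and 45.5 ± 8.17 CPM in naive macrophages, and at 274 ± 85.5 CPM and 344 ± 71.6 CPM in tumors, a difference of differences of -4.97 ± 0.40 (adjusted p = 5.48e-08), and the tumor cell types were not called apart. Socs2, a feedback inhibitor of cytokine signalling, was at 376 and 442 CPM and 45.8 ± 9.85 CPM in naive cells and at 61.0 ± 29.5 CPM and 97.5 ± 16.5 CPM in tumors (-3.95 ± 0.45, adjusted p = 1.41e-05). Hvcn1 was at 132 and 111 CPM and 52.1 ± 13.4 CPM in naive cells and at 34.5 ± 6.40 CPM and 99.0 ± 17.4 CPM in tumors (-2.73 ± 0.31, adjusted p = 1.2e-05). Eosinophils were above macrophages in naive colon and below them in tumors in every library of Hvcn1. Socs2 and the cytokine Osm were likewise called higher in macrophages in tumors (log2 differences -0.87 and -0.71), each call lost in 1 of 27 alternatives, whereas Gsr was still called higher in eosinophils there (2.07). The differences of differences of Hif1a, Osm and Gsr were -2.21, -3.11 and -3.27. Of 22 glycolytic genes and HIF-1 targets 6 differed downward and none upward, and of 18 antioxidant genes 5 and none. Of 9 eosinophil receptors 1 differed, the near copy Csf2rb2, and Ccr3 did not pass the test (-1.28 ± 0.49, adjusted p = 0.147).

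**Figure D5:**
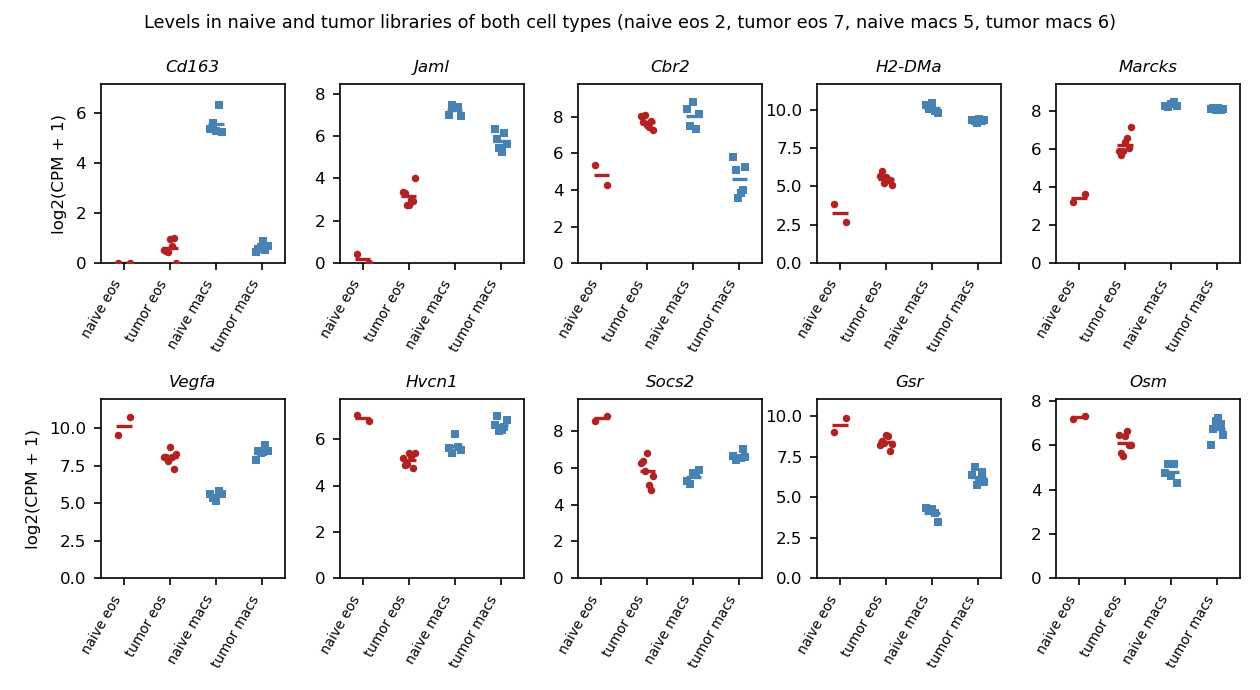
Levels of 10 genes in all 20 libraries as log2(CPM + 1), with a bar at each group mean, for naive and tumor eosinophils (2 and 7 libraries) and naive and tumor macrophages (5 and 6 libraries). In Cd163 and Cbr2 the tumor macrophages are lower than the naive ones, and in Vegfa and Socs2 the naive eosinophils are the highest group.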

How the data were processed

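RNA was sequenced by CEL-Seq with 3 technical replicates per sample, per the labels. TopHat2 2.1.0 and HTSeq 0.6.1 appear among the tools in the submitters' processing notes, beside DESeq2 1.14.1, Bowtie2 2.2.6, Trim Galore, FastQC 0.11.5 and the build GRCm38.p5. The sources used here say nothing of how technical replicates were joined, of molecular barcodes, of strand or of the annotation. The deposited values are a signal per gene and library, gene counts divided by a size factor within each table. Every non-zero value was a whole multiple of its library's step (100.0% within 0.1 read), so reads were recovered. Rows without a gene name held at most 0.13% of reads. They stayed in the scaling, and in the tests where they passed the filter, and were passed over only when genes were named.

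Reads were scaled jointly by TMM (edgeR 4.0.16). The test was limma 3.58.1 in R 4.3.3 (eBayes with a trend, two-sided) on log2(CPM + 1), over genes at 2 CPM or more in at least 6 of the 13 tumor libraries, with Benjamini-Hochberg adjustment over all genes tested and a threshold of 0.05. The comparison with naive colon used all 20 libraries and genes at 2 CPM or more in at least 2. Scripts were tested on simulated data. Alternatives were other scalings, pseudocounts and filters, limma-voom, edgeR's quasi-likelihood test and DESeq2 1.42.0 on recovered reads, a replicate block, and fits without each library. Total reads per library limit the precision of low genes. Counts were not taken as independent molecules, and floors of 3 reads cover counting error only.

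Named genes were Ccr3 and Csf1r, the 12 called genes per direction with the smallest p, the 12 with the highest level among those differing by 4-fold or more, of each list the 2 called members per direction with the smallest p and the member with the highest level, and 6 per direction for the comparison with naive colon. Results on some genes that this rule names are not reported here. The other 93 named genes are list members chosen for their role after their values were seen. The comparison, its members and the gene lists were chosen with earlier results of these data known. Gene positions are those of GENCODE M21, which matched 94.3% of the names. Same-numbered libraries of the cell types deviated together in some cases only (correlations from -0.11 to 0.22), so the numbers were not taken to pair them. Every pair of replicates differed by more than the counting error of reads, by a chi-square per degree of freedom. That measure cannot tell separate animals from technical noise. Macrophage libraries 1 and 2 (7.78), 3 and 4 (7.37) and 5 and 6 (11.9) lay closest, and all other macrophage pairs lay between 20.2 and 63.5. Whether such libraries share animals or a preparation is not stated, and the p-values treat them as separate.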

Additional observations from a re-analysis of the deposited data

Results flagged for a closer look

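Single libraries that stood apart from the rest of their group were looked for in 712 groups of values, of which chance alone flags about 1 in 20, and 22 were found. In eosinophils these were C3 in library 7 (276 CPM, highest), Ly6g in library 1 (74.4 CPM, highest), Tgfb1 in library 2 (31.8 CPM, lowest), Ptges in library 5 (1.93 CPM, lowest), Mki67 in library 6 (22.3 CPM, lowest) and Mx1 in library 6 (4.55 CPM, highest). In macrophages library 6 was highest in Cp (139 CPM), H2-Aa (12920 CPM), Havcr2 (74.3 CPM), Ifi30 (326 CPM), and Ear1 and Il4 (0.253 CPM each). Library 2 was highest in Elane, Gata1 and Gfi1b (0.165 CPM each), which are levels of single reads. Library 1 was lowest in C3 (98.7 CPM), H2-K1 (479 CPM) and Irf1 (223 CPM), and highest in the summed lysosomal enzymes (17030 CPM). Rflnb was highest in library 3 (11.6 CPM), Tnfsf14 highest in library 4 (9.28 CPM) and Krt20 lowest in library 5 (11.4 CPM).

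For 72 of the genes named, the eosinophil minus macrophage difference in tumors differed from that in naive colon by limma's test over all 20 libraries. The values are log2 differences of differences. Upward differences were Cbr2 6.34, Cd163 5.53, Ccl2 5.10, Ear2 4.93, H2-Ob 4.56, Jaml 4.39, C2 3.74, Nlrp3 3.72, Cd4 3.63, Cp 3.47, Alox5 3.12, H2-DMa 3.07, Ear6 3.05, Marcks 3.02, Ccl22 2.87, Ltc4s 2.86, Clec4a3 2.72, Gbp3 2.71, Tnf 2.71, Cd14 2.69, Ccl17 2.69, Ccl4 2.64, Cd74 2.61, H2-Aa 2.55, H2-Eb1 2.55, Clec4a1 2.48, Fgfr1 2.40, Cx3cr1 2.28, H2-Ab1 2.27, C1qb 2.17, Il10 2.11, Entpd3 1.99, C1qc 1.86, Ccr2 1.79, Bcl6 1.78, P2ry6 1.78, Rab7b 1.76, Calr 1.73, Ifitm3 1.71, Apoe 1.68, Cxcl16 1.67, Irf9 1.59, Lyz2 1.44, C1qa 1.34 and Abca1 1.13. Downward differences were Vegfa -4.97, Socs2 -3.95, Thbs1 -3.30, Gsr -3.27, Osm -3.11, Tgm2 -3.02, Ptgs2 -2.88, Hvcn1 -2.73, Ankrd33b -2.46, Il1rn -2.44, Cebpb -2.32, Csf2rb2 -2.31, Alox12e -2.25, Hif1a -2.21, Mmp25 -2.12, F5 -2.07, Pla2g7 -1.89, Slc16a3 -1.86, Spp1 -1.80, Itgb2 -1.61, Adgre1 -1.59, Fosl2 -1.59, Sirpa -1.59, Aldoa -1.47, Tmem154 -1.35, Pecam1 -1.33 and Cybb -1.16. Their cause was not tested.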

How the results depend on the processing

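The number of genes called between the tumor cell types lay between 4175 (filter at 10 CPM) and 6883 (totals of all reads) over the alternatives, 5470 to 6025 with each library left out and 5505 without macrophage libraries 1 and 2, a setting added after seeing the data. Of the 5979 genes, 5619 were also called by edgeR and 5335 by DESeq2. Of 302 named genes tested, 257 kept their call or lack of one in every alternative, 15 lost a call in some, 30 gained one in some, and none turned its sign while called. Genes at a like level numbered 2541 to 2814 with each library left out.

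The comparison with naive colon was less stable. Its 662 genes were 150 with limma-voom and 1083 in DESeq2, and 178 to 1847 with each library left out. Upward genes numbered 170 without a filter, 34 with limma-voom, 550 in DESeq2 and 81 to 752 with each library left out. Downward genes numbered 258 with median-of-ratios factors, 193 with totals without mitochondrial and immunoglobulin genes, 116 with limma-voom and 97 to 1095 with each library left out. Of 72 named genes called there, 25 kept the call in every alternative. Spp1 turned to 0.33 with limma-voom and 0.09 in DESeq2, and Entpd3 to -0.058 in edgeR. The cause was not tested.

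With replicate numbers 1 to 6 as a replicate block, 5763 genes were called between the tumor cell types, 5424 of them among the 5979, and 508 in the comparison with naive colon. Libraries correlated best with their own number in 3 of 6 cases. Genes of a few CPM rest on few reads in the shallowest libraries, where 3 reads were worth up to 1.51 CPM.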

Other observations

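Tumor and naive eosinophil libraries are set side by side here for transcripts that marked single tumor libraries. The naive levels were scaled over all 20 libraries and the tumor levels over the 13. Prg2 was at 293 and 263 CPM in the 2 naive libraries, near the lower tumor libraries and far from library 4. Epx was at 0.989 and 1.88 CPM and Ear6 at 19.0 and 30.6 CPM. S100a8 was at 4.94 and 9.38 CPM in the naive libraries and at 35.1 CPM or more in every tumor library, whereas Retnlg was high in both. Elane was at 0 in both naive libraries, where 3 reads are worth 0.494 and 0.938 CPM, and its reads were limited to tumor libraries 3, 5, 6 and 7.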
